A study of Mus musculus with 18 samples.

Results

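Immunoglobulin kappa variable segments, the genes whose names start with Igkv, encode most of the antigen-binding part of the kappa light chain of antibodies. The 65 segments described here are every such name that occurred in any of 5 tables of differentially expressed genes, out of 2202 genes listed in those tables. The tables compare mice that lack Beclin 2, a mammalian homologue of Beclin 1, which acts in autophagy, with wild-type mice, all on the C57BL/6 background, by sequencing of polyadenylated RNA. Knockout (KO) splenic B cells were set against wild-type (WT) splenic B cells and KO splenic T cells against WT splenic T cells, all from mice aged 8 weeks. KO lymph nodes were set against WT lymph nodes, and KO lymphoma tissue, called KO tumour below, against KO lymph nodes and against WT lymph nodes. These 7 groups had 2 libraries each and were neither cultured nor stimulated, and the macrophage samples of the same series were not analysed here. The sources used here gave neither the number of animals per sample, nor the age of the mice that gave tumours and lymph nodes. The design of the knockout allele was not given either. The 2 samples of a group may thus be technical repeats, so p-values need not reflect the spread between animals. Nor did small p-values always go with close libraries, as described for T cells below.

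As background, a developing B cell joins 1 kappa variable segment to a joining segment, Igkj, by recombination of its DNA, and the joined exon is spliced to the constant region Igkc. A B cell usually expresses the light chain of a single such join, and its daughter cells inherit that join, so the amounts of the different segments in a tissue describe the make-up of its B lineage cells. Plasma cells, the antibody-secreting end stage of the lineage, hold far more light chain RNA per cell than resting B cells, while T cells do not rearrange this locus productively. In bulk RNA of these samples, more cells that carry a segment and more of its RNA per cell cannot be told apart.

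All 65 names matched GENCODE release M21 on GRCm38, the build named in the submitters' processing notes, and all 65 are functional variable genes there, with 2 exons each, a leader exon and the exon that encodes the variable domain. The annotation holds 100 functional Igkv genes and 60 pseudogenes on chromosome 6, from 67555497 to 70704177, upstream of Igkj1, which lies on the plus strand at 70722562 to 70722599. No pseudogene was among the members, and 35 functional genes were in none of the tables. The name gives the sequence subgroup first and then the place in the locus, counted from the Igkj end. The following germline sequences, from the GENCODE M21 transcripts, are the last 60 bases of the variable exon of the 9 segments on which the results turn most. The capitals run from the codon of the conserved second cysteine to the end of the exon. After that cysteine codon they are the germline part of the third complementarity-determining region, next to the join. Segments can differ in the capitals or in the bases before them.
Igkv3-4: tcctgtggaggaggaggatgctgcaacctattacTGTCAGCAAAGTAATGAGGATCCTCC
Igkv3-5: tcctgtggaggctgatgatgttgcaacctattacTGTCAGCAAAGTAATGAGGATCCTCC
Igkv5-39: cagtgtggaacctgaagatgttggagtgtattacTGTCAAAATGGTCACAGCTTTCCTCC
Igkv13-84: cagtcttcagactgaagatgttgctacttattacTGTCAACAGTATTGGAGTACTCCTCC
Igkv1-135: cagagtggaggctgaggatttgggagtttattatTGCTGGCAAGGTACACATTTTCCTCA
Igkv6-15: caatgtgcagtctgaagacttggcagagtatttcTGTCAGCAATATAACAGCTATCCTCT
Igkv12-44: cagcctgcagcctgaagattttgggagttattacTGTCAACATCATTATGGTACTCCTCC
Igkv3-1: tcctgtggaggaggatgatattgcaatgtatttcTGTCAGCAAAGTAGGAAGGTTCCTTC
Igkv11-125: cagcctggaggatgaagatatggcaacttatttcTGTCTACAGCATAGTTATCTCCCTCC

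In this set Igkv3-4 (printed bases chr6:70672318-70672377, plus strand) and Igkv3-5 (chr6:70663836-70663895, plus strand) end in the same capitals, and no other functional segment of the locus ends in them. Their whole variable exons were 91.0% identical. Igkv5-39 (chr6:69900424-69900483, minus strand) and Igkv1-135 (chr6:67610449-67610508, plus strand) shared their capitals with no other functional segment. Igkv13-84 (chr6:68940008-68940067, plus strand) shared them with Igkv13-85, which was in no table, and the variable exons of that pair were 97.0% identical. Over the 65 members the nearest other functional segment was 94.5% identical at the median, between 75.9% and 99.0%. For 31 members the nearest copy was at least 95% identical, and for 5 at least 98%, among them Igkv3-5, whose nearest copy Igkv3-10 was 98.1% identical, and Igkv5-43, whose nearest copy Igkv5-45 was 99.0% identical. Reads of such members could have been divided between copies by the authors' counting, so values of single close copies are uncertain.

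Each table was limited to genes called by the authors' DESeq test (adjusted p below 0.05), and its normalised read counts were means, 1 for each group. A segment that is missing from a table was not called there and has no value, and a listed one had to differ. The listing leaves its direction to be described. With 2 libraries per group, being called favours large folds and separate libraries, so the sizes of listed folds are partly set by the listing. The reads of both libraries of each group were recovered from the digits of the means for all 132 listings of members. Values per library below are those reads divided by the authors' size factor of the library, which lay between 0.842 and 1.193. The library with the lower size factor is called library a and the other library b, since neither carries a replicate number. Becn2, the gene that was knocked out, and Becn1 were in none of the 5 tables, so the knockout label could not be checked against expression.

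All 132 listings were higher in the first-named group: 15 of 15 in KO B cells, 46 of 46 in KO T cells, 8 of 8 in KO lymph nodes, 24 of 24 in KO tumours against KO lymph nodes and 39 of 39 in KO tumours against WT lymph nodes. The share of all genes tested that were called higher was 0.493% in KO B cells, 1.67% in KO T cells, 0.181% in KO lymph nodes, 0.700% in KO tumours against KO lymph nodes and 3.34% in KO tumours against WT lymph nodes. Called in either direction were 1.24%, 2.35%, 0.475%, 1.77% and 7.38% of the genes tested in the same 5 comparisons. Among all called genes 39.6% were higher in KO B cells, 71.2% in KO T cells, 38.1% in KO lymph nodes, 39.5% in KO tumours against KO lymph nodes and 45.2% in KO tumours against WT lymph nodes. Out of the 65 segments, 27 were in 1 table, 15 in 2, 18 in 3, 4 in 4 and 1, Igkv1-135, in all 5.

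In KO B cells 15 kappa variable segments were higher than in WT B cells, and 3 of them, Igkv3-4, Igkv3-5 and Igkv5-39, held most of the reads on these 15. Fold changes of the means ran from 3.69 for Igkv1-135 to 30.4 for Igkv3-5. The median log2 fold change of the 15 segments was 2.72, beside 1.88 for all genes called higher in this table and -0.92 for all genes called in either direction. The normalised read counts of the 15 segments summed to 31251 and 50068 in the KO libraries, against 3744 and 3825 in the WT libraries.

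Igkv3-5 had 6658 and 8582 normalised reads in KO B cells, against 260.3 and 241 in WT B cells. Both KO libraries stood more than an order of magnitude above both WT libraries, with a log2 fold change of 4.92 and an adjusted p of 3.34e-28 in the authors' deposited table. Igkv3-4, the neighbour with the same germline end, had 7054 and 15889 normalised reads in KO B cells, against 436 and 668 in WT B cells. The groups did not overlap, but the KO libraries differed 2.25-fold from each other, and the adjusted p of the authors' deposited table was 0.0451 for a log2 fold change of 4.38. Igkv5-39 had the same pattern, with 5541 and 12229 normalised reads in KO B cells, against 499.7 and 454 in WT B cells, a log2 fold change of 4.22 and an adjusted p of 0.0425 in the authors' deposited table. For both segments the higher KO library was library b, and leaving it out gave log2 fold changes of 3.68 for Igkv3-4 and 3.54 for Igkv5-39. Per kilobase of exon, the means of the authors' deposited table gave Igkv3-4 the highest level of the listed segments in KO B cells at 31866, followed by Igkv5-39 at 25606 and Igkv3-5 at 19947, with Igkv1-135 at 8013. Of the listed segments, Igkv1-135 stood first in WT B cells at 2169 per kilobase, before Igkv3-4 at 1533 and Igkv5-39 at 1375. The 3 segments together made up 61.6% and 73.3% of the reads on the 15 listed segments in the KO libraries, against 32.0% and 35.6% in the WT libraries.

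The smallest adjusted p in B cells belonged to Igkv13-84, a segment in the middle of the locus whose KO libraries lay close together. It had 2503 and 2179 normalised reads in KO B cells, against 178 and 192 in WT B cells, a log2 fold change of 3.66 with an adjusted p of 5.99e-53 in the authors' deposited table. After Igkv3-5, the next smallest adjusted p was that of Igkv4-91, with 1172 and 1106 in KO B cells, against 179.5 and 149 in WT B cells, a log2 fold change of 2.79 and an adjusted p of 1.13e-27 in the authors' deposited table. Igkv1-135, the most distal member from the Igkj end, was also evenly distributed, with 3199 and 3115 normalised reads in KO B cells, against 918 and 792 in WT B cells. Its log2 fold change of 1.89 was the smallest of the 15, with an adjusted p of 1.14e-17 in the authors' deposited table. At the low end of the scale, Igkv3-3, another neighbour of Igkv3-4, had 46.0 and 62.1 normalised reads in KO B cells, against 3.99 and 6.70 in WT B cells. The remaining listed segments were Igkv14-130, Igkv11-125, Igkv4-59, Igkv12-41, Igkv6-14, Igkv4-90, Igkv4-53 and Igkv8-27, with log2 fold changes between 1.91 and 3.34.

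**Figure D1:**
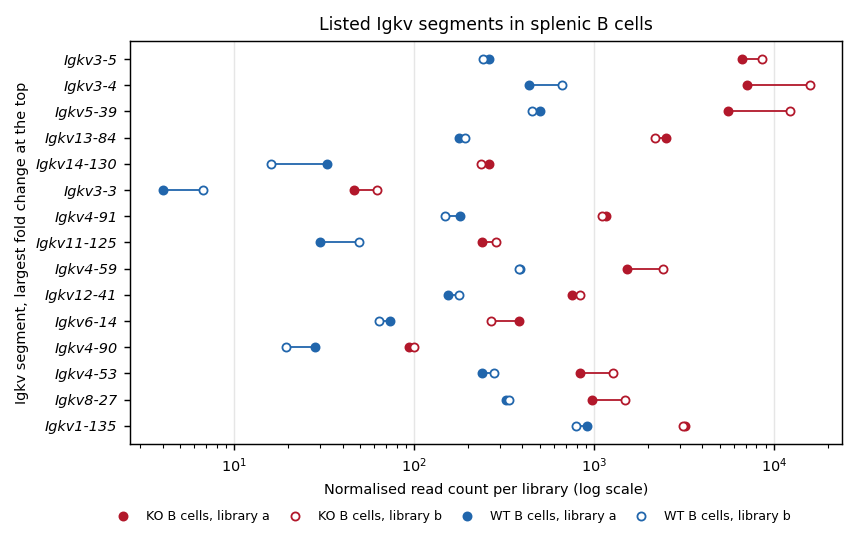
Normalised read counts per library (log scale) of the 15 listed Igkv segments in KO and WT splenic B cells, with a line joining the 2 libraries of a group. The KO points lie to the right of the WT points for every segment, which being called favours. The KO libraries of Igkv3-4 (7054 and 15889) and Igkv5-39 (5541 and 12229) are the most spread.

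Between the KO B cell libraries 5 segments were at least 1.5-fold higher in library b, namely Igkv3-4, Igkv5-39, Igkv4-59, Igkv4-53 and Igkv8-27, and none was so in library a. Out of 17 other genes of the kappa and lambda loci, Iglv2, a lambda variable segment, was the single one called, with 3024 and 3758 normalised reads in KO B cells, against 1134 and 1035 in WT B cells. Igkc was not listed in B cells, so its level there is not known from these tables. Among 7 germinal centre markers 5 were called, all higher, Gcsam and S1pr2, a receptor that keeps B cells in the germinal centre, among them, and the 5 summed to 1925 and 2100.2 normalised reads in the KO libraries, against 622 and 468 in the WT libraries. Out of 12 plasma cell markers only Irf4 was called, and it was lower. Out of 10 B cell markers Fcer2a, the low-affinity IgE receptor of mature B cells, was called, and lower, and 5 of 6 natural killer cell markers were lower, with sums of 1782 and 1903 in KO B cells against 5853 and 5411 in WT B cells. Their part in the difference of the Igkv segments was not tested.

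In splenic T cells, 46 of the 100 functional Igkv segments were listed, more than in any other table, and all were higher in KO T cells than in WT T cells. Fold changes of the means ran from 2.36 for Igkv4-86 to 77.5 for Igkv3-1. The median log2 fold change was 3.02, beside 1.54 for all genes called higher in this table and 1.14 for all called genes. The normalised read counts of the 46 segments summed to 40827 and 43529 in the KO libraries, against 7813 and 3848 in the WT libraries.

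Of the listed segments, those with the highest levels in KO T cells, also per kilobase of exon, were Igkv1-117, Igkv1-135 and Igkv6-15. Igkv1-117 had 4024 and 2636 normalised reads in KO T cells, against 639.9 and 426 in WT T cells, with a log2 fold change of 2.64 and an adjusted p of 0.000276 in the authors' deposited table. Igkv1-135 had 2219 and 2649 in KO T cells, against 565 and 346 in WT T cells, with a log2 fold change of 2.42 and an adjusted p of 8.14e-19 in the authors' deposited table. Igkv6-15 had 2079 and 2019 in KO T cells, against 264 and 129 in WT T cells, with a log2 fold change of 3.38 and the smallest adjusted p of the 46, 2.36e-56, in the authors' deposited table. Among the 46 listed segments no single one dominated. The highest of them in a KO library held 9.86% or 6.09% of their reads, and that in a WT library 8.19% or 11.1%. Segments that were not called have no value and could be more abundant.

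The largest folds belonged to segments that were near the floor in WT T cells. Igkv3-1, the segment nearest to the Igkj genes, had 821 and 303 reads in the KO libraries, against 2 and 13 in the WT libraries, a log2 fold change of 6.28 with an adjusted p of 0.0401 in the authors' deposited table. Its log2 fold change lay between 5.32 and 7.85 when any 1 of the 4 libraries was left out, so that the size of the fold rests on few reads. Igkv11-125, near the distal end, had 377 and 540 reads in KO T cells, against 6 and 11 in WT T cells, a log2 fold change of 5.68 with an adjusted p of 1.10e-20 in the authors' deposited table. Igkv3-7 had 240 and 423 normalised reads in KO T cells, against 13.1 and 6.32 in WT T cells, and Igkv6-14 had 283 and 405 in KO T cells, against 17.8 and 4.51 in WT T cells. Subgroup 3 thus gave the largest single fold in KO B cells and in KO T cells, but through different members, since Igkv3-3, Igkv3-4 and Igkv3-5 were listed in B cells and Igkv3-1, Igkv3-7 and Igkv3-12 in T cells.

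**Figure D2:**
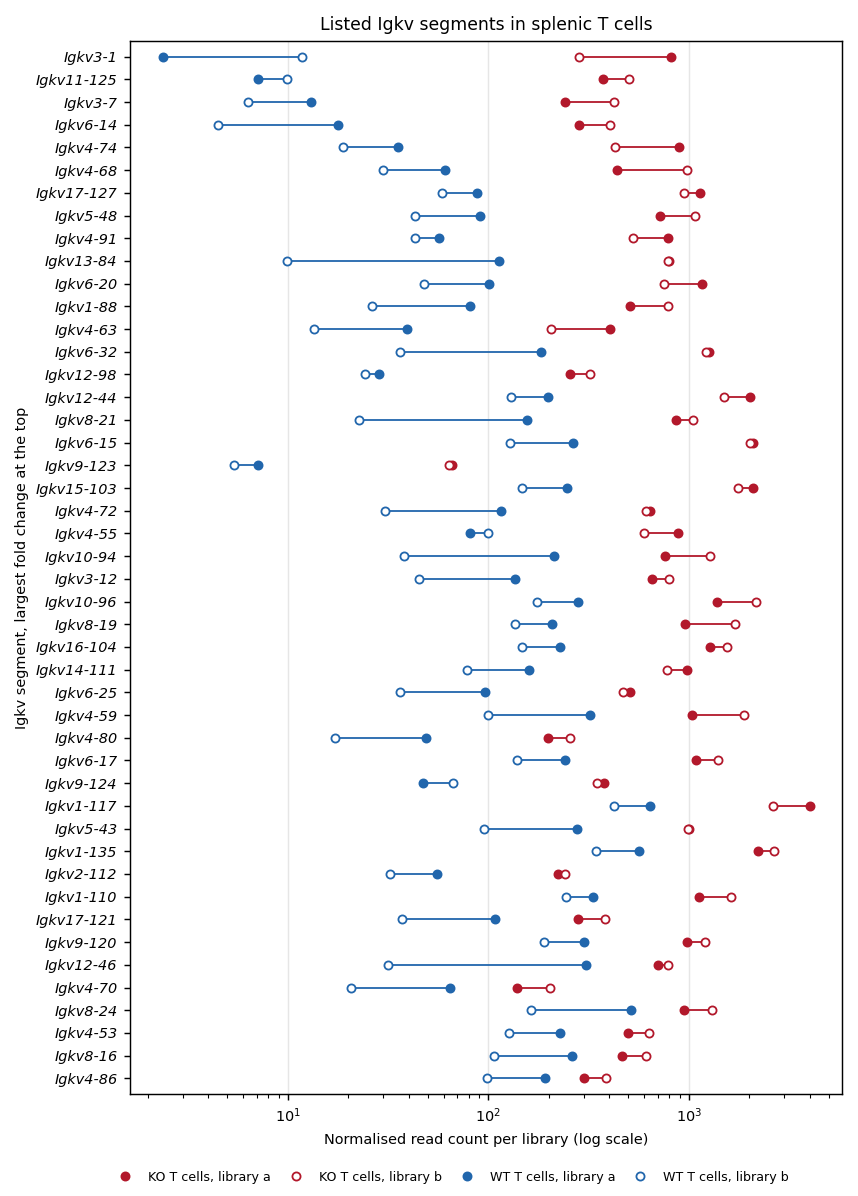
Normalised read counts per library (log scale) of the 46 listed Igkv segments in KO and WT splenic T cells, with a line joining the 2 libraries of a group. The KO pairs lie to the right of the WT pairs, which being called favours. The filled WT point (library a) lies to the right of the open one (library b) in 42 of 46 segments.

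The WT T cell libraries differed from each other in these segments: 42 of 46 were higher in library a, 24 of them at least 2-fold, and the median difference was 2.04-fold, against a median of 1.31-fold between the KO T cell libraries. Igkv13-84 shows the extreme, with 796 and 790.0 normalised reads in KO T cells, against 113 and 9.92 in WT T cells, a log2 fold change of 3.69 that was 2.81 or 6.32 with 1 WT library left out, and an adjusted p of 3.78e-47 in the authors' deposited table. Igkv12-46 had 703 and 788 in KO T cells, against 308 and 31.6 in WT T cells. Igkv6-32 had 1264 and 1218 in KO T cells, against 183 and 36.1 in WT T cells, with a log2 fold change of 3.50 and an adjusted p of 1.56e-52 in the authors' deposited table. Without WT library a, the log2 fold change was 5.10 for Igkv6-32, 4.56 for Igkv12-46 and 3.99 for Igkv6-15. Without WT library a the median log2 fold change of the 46 segments was 3.74, and the log2 ratio of their summed reads was 3.45 in place of 2.86. Without WT library b they were 2.64 and 2.43.

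Other transcripts of B lineage cells moved with these segments in the T cell libraries. Igkc averaged 167672 normalised reads in KO T cells and 25120.5 in WT T cells in the authors' deposited table, a log2 fold change of 2.74. Relative to Igkc, 31 of the 46 segments had a larger fold and 15 a smaller one, with a median log2 difference of 0.28. Segments that were not called are missing from this count, and being called favours large folds. In the authors' deposited table the joining segments Igkj2, Igkj3, Igkj4 and Igkj5 were called higher, with log2 fold changes of 2.32, 3.41, 3.11 and 2.25, as were Iglc2, Iglv1, Iglv2 and Iglv3 of the lambda locus, with values between 1.56 and 2.35. Out of 12 plasma cell markers 9 were called, all higher, among them Sdc1, the surface marker of plasma cells, Mzb1, a chaperone of antibody assembly, and Xbp1, the transcription factor of the secretory programme. The 9 plasma cell markers summed to 14391 and 14841 normalised reads in the KO libraries, against 6095 and 4372 in the WT libraries, the higher WT value again in library a. Only Blnk of 10 B cell markers was called, at a log2 fold change of 1.16 in the authors' deposited table, and Cd8b1 was the one T cell marker of 10 that was called, lower in KO T cells. Out of 6 macrophage markers 4 were higher in KO T cells, with sums of 9332 and 7815 in KO T cells, against 4071 and 1817 in WT T cells, so markers of other cell types moved with the Igkv segments in libraries labelled as T cells. Their part in the result was not tested.

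In lymph nodes 8 segments were called, all higher in KO lymph nodes than in WT lymph nodes. Of these, 4 belonged to subgroup 3, which holds 9 of the 100 functional segments. The median log2 fold change was 2.09, beside 2.83 for all genes called higher and -0.88 for all called genes in this table. Their normalised read counts summed to 7528 and 8585 in the KO libraries, against 2120 and 2284 in the WT libraries.

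Igkv5-39 led the list, with 1514 and 1833 normalised reads in KO lymph nodes, against 269 and 204 in WT lymph nodes. The 2 KO libraries were 1.21-fold apart, and the log2 fold change of 2.82 had an adjusted p of 6.01e-23 in the authors' deposited table. Igkv3-5 had 675 and 673 in KO lymph nodes, against 136.5 and 84.6 in WT lymph nodes, with a log2 fold change of 2.61 and an adjusted p of 5.87e-11 in the authors' deposited table. Igkv3-4 had 1227 and 1701 in KO lymph nodes, against 258 and 492 in WT lymph nodes, a log2 fold change of 1.96 with an adjusted p of 0.00174 in the authors' deposited table. These 3 segments had the highest levels in KO B cells among the segments listed there. With Igkv1-135 they were the 4 segments that the B cell and lymph node tables had in common. They made up 26.7% of the B cell list and 50% of the lymph node list. Of all functional segments, 8% were listed in lymph nodes and 15% in B cells. Igkv3-12 had 873 and 858 in KO lymph nodes, against 212 and 161 in WT lymph nodes, and Igkv3-2 had 615 and 903 in KO lymph nodes, against 278 and 194 in WT lymph nodes. Igkv14-126 had 504 and 703 in KO lymph nodes, against 115.5 and 89.6 in WT lymph nodes, with a log2 fold change of 2.56 in the authors' deposited table. The smallest changes were those of Igkv1-135, with 996 and 985 in KO lymph nodes, against 414 and 496 in WT lymph nodes, and of Igkv6-23, with 1124 and 929.9 in KO lymph nodes, against 437 and 563 in WT lymph nodes. Both KO libraries stood above both WT libraries in either case.

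Igkc had 94539 and 97559.7 normalised reads in KO lymph nodes, against 39626 and 44083 in WT lymph nodes, 2.29-fold higher by the means of the authors' deposited table. Relative to Igkc, 6 of the 8 segments had a larger fold, and Igkv1-135 and Igkv6-23 a smaller one, with log2 differences of -0.075 and -0.16. Here too only called segments are counted, and being called favours large folds. None of the 12 plasma cell markers was called in lymph nodes, and 3 of 10 B cell markers, Cd79a, Pax5 and Fcer2a, were called lower, with sums of 19249.7 and 18585 in KO lymph nodes against 29214 and 31308 in WT lymph nodes. Kappa light chain reads were thus higher in libraries in which these 3 B cell genes were lower, and the relation between them was not tested. Of 6 macrophage markers Siglec1 was called, and higher, with 5955 and 5819 normalised reads in KO lymph nodes, against 3976 and 3503 in WT lymph nodes, and its part in the segments' levels was not tested.

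The KO tumours were compared with KO lymph nodes and with WT lymph nodes, and both comparisons use the same 2 tumour libraries, while the lymph node groups are those of the preceding comparison. Against KO lymph nodes 24 segments were called, and against WT lymph nodes 39, all of them higher in KO tumours. Of the 24 segments 23 were also among the 39, the exception being Igkv9-120, with a log2 fold change of 1.25 against KO lymph nodes in the authors' deposited table. The median log2 fold change was 1.95 against KO lymph nodes, beside 1.49 for all genes called higher, and 2.61 against WT lymph nodes, beside 1.06 for all genes called higher. The medians of all called genes were -0.96 and -0.45 in the same order. The 24 segments summed to 53231 and 57286 normalised reads in KO tumours, against 12704 and 13487 in KO lymph nodes, and the 39 segments to 72369 and 76638 in KO tumours, against 9368 and 9376 in WT lymph nodes.

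Igkv5-39 was the most abundant listed segment in both tumour libraries, with 9889 and 18146 reads, against 1373 and 2168 reads in KO lymph nodes and 256 and 205 reads in WT lymph nodes. Its log2 fold change was 2.94 with an adjusted p of 0.0144 against KO lymph nodes, and 5.75 with an adjusted p of 5.11e-07 against WT lymph nodes, in the authors' deposited tables. It held 13.1% and 21.9% of the reads on the 39 listed segments in KO tumours, against 2.96% and 2.25% in WT lymph nodes. Igkv3-5 had 1974 and 4223 normalised reads in KO tumours, against 141 and 87.4 in WT lymph nodes, a log2 fold change of 4.76 with an adjusted p of 0.0026 in the authors' deposited table. That log2 fold change was 4.11 without tumour library b. Igkv3-2 had 2320 and 4935 in KO tumours, against 287 and 200.5 in WT lymph nodes. All 3 of these segments were higher in tumour library b than in library a, by 1.77-fold, 2.14-fold and 2.13-fold.

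Igkv3-4 differed from them in that its 2 tumour libraries were alike, with 4076 and 4067 normalised reads in KO tumours, against 266 and 508 in WT lymph nodes. Its log2 fold change of 3.39 carried the smallest adjusted p of all members in any table, 2.58e-103 against WT lymph nodes in the authors' deposited table, and was 1.44 against KO lymph nodes with an adjusted p of 1.19e-10 there. Igkv16-104 was similarly even, with 2809 and 2539 in KO tumours, against 363 and 287 in WT lymph nodes, as was Igkv3-12, with 1523 and 1727 in KO tumours, against 219 and 167 in WT lymph nodes. Against KO lymph nodes the largest fold was that of Igkv12-44, with 4218 and 2763 normalised reads in KO tumours, against 542 and 204 in KO lymph nodes, a log2 fold change of 3.23 with an adjusted p of 3.30e-05 in the authors' deposited table. With any 1 library left out its log2 fold change lay between 2.69 and 4.09. Igkv8-21 followed with 2597 and 1578 in KO tumours, against 175 and 301 in KO lymph nodes, and after Igkv5-39 came Igkv12-46, with 3281 and 2201 in KO tumours, against 369 and 400.4 in KO lymph nodes. The most abundant of the 39 listed segments in WT lymph nodes, Igkv6-15, had the smallest fold of the 39, with 4673 and 4388 in KO tumours, against 1510.4 and 1555 in WT lymph nodes, a log2 fold change of 1.56 with an adjusted p of 9.15e-29 in the authors' deposited table.

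**Figure D3:**
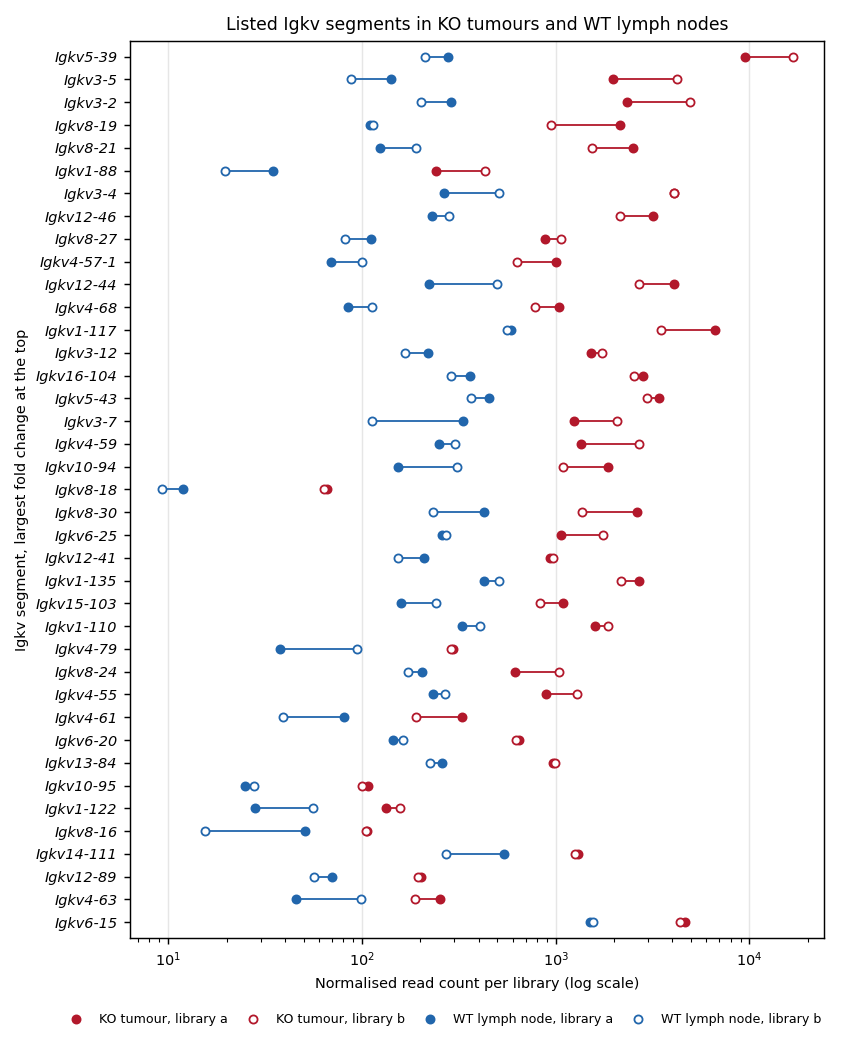
Normalised read counts per library (log scale) of the 39 listed Igkv segments in KO tumours and WT lymph nodes, with a line joining the 2 libraries of a group. Igkv5-39 is the highest of the 39 in both tumours, and tumour library b (open points) lies to the right of library a for Igkv5-39, Igkv3-5 and Igkv3-2 and to the left for Igkv1-117 and Igkv8-19.

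Both tumour libraries stood above both WT lymph node libraries for all 39 segments, which their being called favours. The share of all called genes with such separate libraries was not computed, so this is not a trait particular to the segments. Some of the 39 were uneven between the tumours. Out of the 39 segments 8 were at least 1.5-fold higher in tumour library b, and 8 others at least 1.5-fold higher in library a. Among those higher in library a, Igkv1-117 had 6654 and 3508 normalised reads in KO tumours, against 590.1 and 563 in WT lymph nodes. Igkv8-19 was another, with 2160 and 950 in KO tumours, against 110.4 and 114 in WT lymph nodes. In WT lymph nodes 8 of the same 39 segments were at least 1.5-fold higher in library b and 7 in library a, so the number of uneven segments was alike in both groups. The 5 highest of the 39 segments held 40.0% and 44.8% of their reads in KO tumours, against 37.6% and 38.8% in WT lymph nodes.

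Igkc had 191345 and 217902 normalised reads in KO tumours, against 99919 and 102909.8 in KO lymph nodes, a log2 fold change of 1.01 in the authors' deposited table. Except for Igkv3-12, the 24 segments called in this comparison all had a larger fold than Igkc, at the median by 0.94 on the log2 scale. Against WT lymph nodes the log2 fold change of Igkc was 2.20 in the authors' deposited table, and 26 of the 39 segments had a larger fold and 13 a smaller one, with a median difference of 0.42. Both counts cover called segments only, and being called favours large folds. They do not show that Igkv segments as a whole rose more than Igkc. Plasma cell markers were higher in KO tumours in 8 of 12 genes against KO lymph nodes, with sums of 32969.6 and 32408 in KO tumours and of 18448 and 17587 in KO lymph nodes. Against WT lymph nodes 9 of 12 were higher, with sums of 35199 and 33908 in KO tumours and of 15208 and 15169.6 in WT lymph nodes. B cell markers went the other way where called, 1 of 10 lower against KO lymph nodes (Cr2) and 2 of 10 lower against WT lymph nodes (Cr2 and Fcer2a). Germinal centre markers were lower in KO tumours where called, 1 of 7 against KO lymph nodes (Basp1) and 2 of 7 against WT lymph nodes (Bcl6 and Basp1). Of 6 macrophage markers Csf1r, Marco and Siglec1 were lower against KO lymph nodes, with sums of 7349 and 4910.1 in KO tumours and of 19904 and 16782 in KO lymph nodes. Against WT lymph nodes Marco alone of the 6 was called, with 976 and 716 in KO tumours and 5503 and 8260.5 in WT lymph nodes. Of 6 natural killer cell markers Eomes was higher in KO tumours in both comparisons, and 4 others were lower against WT lymph nodes. None of 10 T cell markers was called against KO lymph nodes, while against WT lymph nodes 4 were lower (Cd8a, Cd8b1, Trac and Lck) and 2 higher (Cd4 and Il7r). The part of these cell types in the segments' levels was not tested. Markers of salivary gland also separated the groups: 5 of 6 were called higher in KO tumours in both comparisons. They summed to 461107 and 175076 normalised reads in KO tumours, against 257 and 4920 in KO lymph nodes, and, on the scale of the other table, to 446060 and 169837 in KO tumours, against 20792 and 6490 in WT lymph nodes. Salivary reads were higher in tumour library a, while the 39 segments summed to nearly the same value in both tumour libraries, and the part of the salivary tissue in the segments' levels was not tested.

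Set side by side, the lists of different tissues overlapped in part. Of the 15 segments higher in KO B cells, 7 were also higher in KO T cells (46.7% of the B cell list and 15.2% of the T cell list): Igkv1-135, Igkv13-84, Igkv4-59, Igkv4-91, Igkv4-53, Igkv6-14 and Igkv11-125. These 2 shares are close to the 46% and 15% of all functional segments, so this overlap is no more than the sizes of the lists would give. The T cell list shared 25 segments with the list of KO tumours against WT lymph nodes (54.3% and 64.1% of the lists). The matching shares of all functional segments were 39% and 46%. The B cell list shared 8 with that tumour list (53.3% and 20.5%), beside 39% and 15% of all functional segments. Whether these overlaps exceed what the sizes of the lists would give was not tested. The T cell and lymph node lists shared 2 segments, Igkv1-135 and Igkv3-12 (4.35% and 25% of the lists), beside 8% and 46% of all functional segments. Igkv3-4, Igkv3-5 and Igkv5-39, listed in both KO B cells and KO lymph nodes, were not called in T cells. In all, 3 segments were listed in B cells alone, 16 in T cells alone and 11 in lymph node or tumour tables alone.

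**Figure D4:**
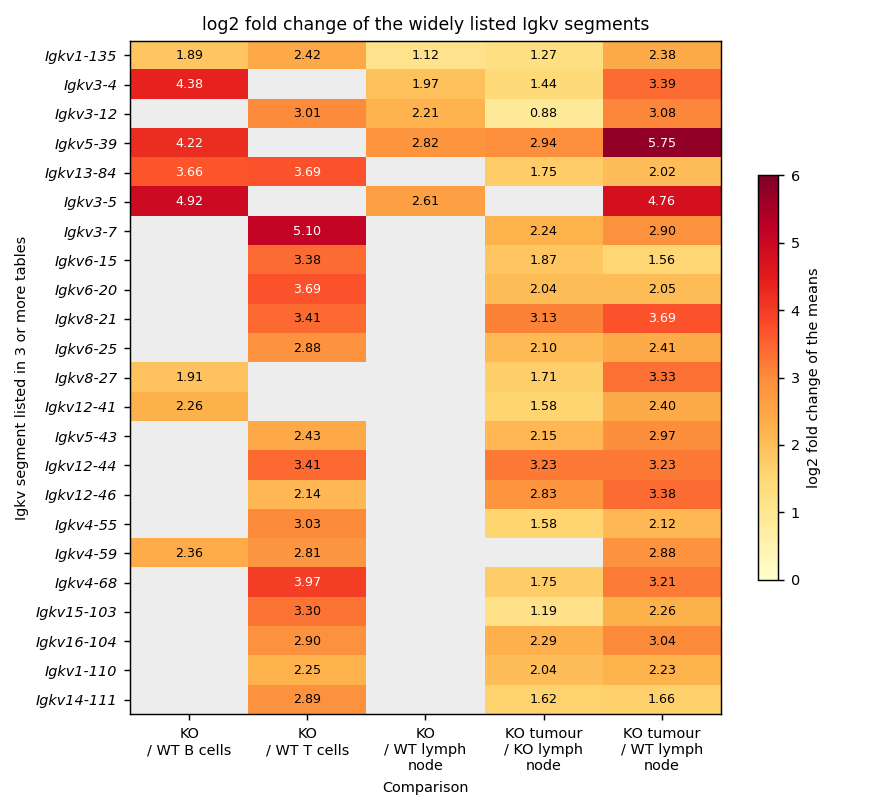
log2 fold changes, computed from the authors' deposited means, of the 23 Igkv segments listed in 3 or more of the 5 comparisons, with grey where a segment was not called and has no value. Igkv1-135 has a value in all 5 columns, between 1.12 and 2.42, and the darkest cell is that of Igkv5-39 in KO tumours against WT lymph nodes at 5.75.

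By subgroup, 7 of the 9 functional Igkv3 segments were members, 7 of 9 Igkv6, 7 of 10 Igkv8, 5 of 6 Igkv12, 5 of 10 Igkv1 and 15 of 26 Igkv4, the largest subgroup. Over the whole locus 65 of the 100 functional segments were members. The single functional segments of subgroups 7, 18, 19 and 20 were in no table. The Igkv3 members had a median log2 fold change of 4.38 over 3 segments in B cells, 5.10 over 3 in T cells, 2.09 over 4 in lymph nodes, 1.44 over 3 in KO tumours against KO lymph nodes and 3.39 over 5 in KO tumours against WT lymph nodes. Igkv4 makes up 26 of the 100 functional segments. Its members were most numerous in T cells, which had the longest list, with 11 of 46 segments and a median of 3.03. No Igkv4 segment was among the 8 called in lymph nodes. Igkv4 counted 4 of 15 segments in B cells, with a median of 2.20, and 2 of 24 in KO tumours against KO lymph nodes. Against WT lymph nodes it counted 7 of 39 in KO tumours, with a median of 2.14. All 7 Igkv8 members were listed in KO tumours against WT lymph nodes, where 39 of the 65 members were listed. Their median log2 fold change was 2.61, with a highest value of 3.79 for Igkv8-19. Sequence subgroup and position overlap in this locus, since members of Igkv3 lie near the Igkj end.

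Along the locus the listed segments were found from the Igkj end to the far end, 3112 kb away, where Igkv1-135 lies. The median distance from Igkj1 was 1314 kb for all 100 functional segments. For the listed segments it was 1073 kb in KO B cells, 1475 kb in KO T cells, 333 kb in KO lymph nodes, 932 kb in KO tumours against KO lymph nodes and 957 kb in KO tumours against WT lymph nodes. Of the 10 functional segments nearest to Igkj1, 3 were listed as higher in KO B cells, 3 in KO T cells, 4 in KO lymph nodes, 3 in KO tumours against KO lymph nodes and 5 in KO tumours against WT lymph nodes. Of all functional segments, 15%, 46%, 8%, 24% and 39% were listed in the same 5 comparisons. Segments on the strand of Igkj1 rearrange by deletion and those on the other strand by inversion. In the whole locus 38 of 100 functional segments share that strand. The count was 7 of 15 in KO B cells, 18 of 46 in KO T cells, 6 of 8 in KO lymph nodes, 13 of 24 in KO tumours against KO lymph nodes and 16 of 39 in KO tumours against WT lymph nodes.

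**Figure D5:**
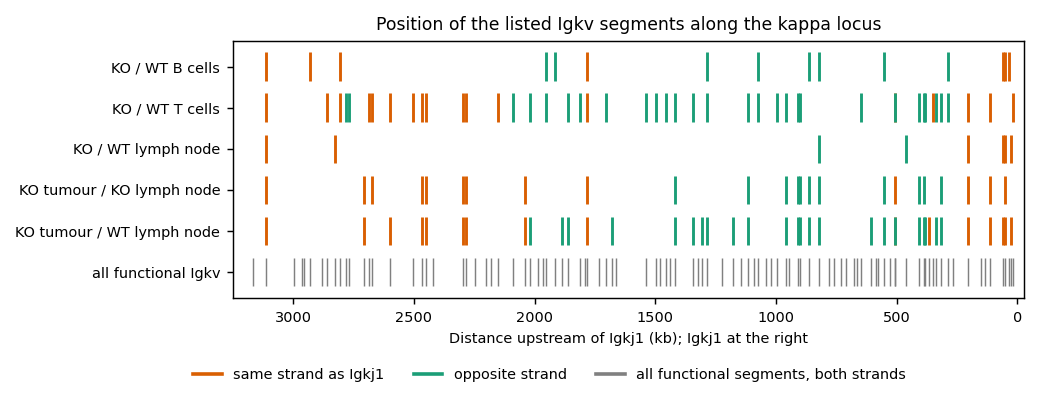
Distance of the listed Igkv segments from Igkj1 in kb, 1 row per comparison and the 100 functional segments in the bottom row, coloured by strand relative to Igkj1. T cell segments are spread over the whole locus, with a median distance of 1475 kb, and 4 of the 8 lymph node segments are among the 10 nearest to Igkj1.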

How the data were processed

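RNA from 14 libraries in 7 groups of 2 was used here. Per the submitters' processing notes, CASAVA 1.8 and DESeq (no version) were used with GRCm38 (mm10). Aligner, read counter, strand setting and gene annotation are not given in the sources used here. The signal deposited by the authors was 1 mean normalised read count per gene and group. Each p-value and adjusted p-value was deposited by the authors, from DESeq with Benjamini-Hochberg adjustment over the 22086 to 25015 genes tested, a number recovered from p, rank and adjusted p. No test was added, since the tables list called genes only. Log2 fold changes were computed from the deposited means.

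Reads of both libraries were recovered as the whole numbers whose weighted sum gives the printed mean, with 1 pair of size factors per group. The step was tested on simulated data. Where 2 tables share a group, 430 of 430 genes, 33 of 33 among the members, gave the same reads. This check covers lymph nodes and tumours only, since the B and T cell groups are not shared. Means were printed to 10 digits for B and T cells and to 15 digits for the others. Reads were recovered for 297 and 290 of 298 listed genes in KO and WT B cells. In KO and WT T cells they were recovered for 560 and 512 of 587. Libraries a and b are not paired across groups.

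A gene of the germinal centre list is not reported here. The members and lists were chosen with earlier results of these data known. Named were, per table, the 4 largest folds with a mean of at least 50, the 3 highest means, the 3 smallest adjusted p and members in 3 or more tables. Igkv3-3, Igkv4-86, Igkv9-120 and the segments of B cells named without values were named after their values were seen. Alternatives were other thresholds, a pseudocount of 1, unscaled reads, scaling to Igkc, and leaving out libraries or the most abundant member. Positions, exons and sequences came from GENCODE M21. Python 3.11.15, pandas 2.3.3, numpy 2.4.6, Biopython 1.88 and matplotlib 3.10.9 were used.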

Additional observations from a re-analysis of the deposited data

How the results depend on the processing

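No count, median or summed ratio changed direction under the alternatives run. Every listing was higher, with both libraries of the first-named group above both of the other. Being called favours such separation, and its share over all called genes was not computed. Thresholds, a pseudocount and leaving out a library or a member could therefore not reverse the direction. Unscaled reads and scaling to Igkc were the alternatives that could. Scaling to Igkc was run on the medians of the 4 comparisons that list Igkc. There 15 of 46 single segments in T cells, 2 of 8 in lymph nodes, 1 of 24 in KO tumours against KO lymph nodes and 13 of 39 in KO tumours against WT lymph nodes had a smaller fold than Igkc, so their sign turns on that scale. At an adjusted p under 0.001 the number of listed segments was 8 of 15 in B cells, 4 of 8 in lymph nodes, 14 of 24 in KO tumours against KO lymph nodes and 23 of 39 in KO tumours against WT lymph nodes. Relative to Igkc the median log2 fold change was 0.28 in T cells, 0.89 in lymph nodes, 0.94 in KO tumours against KO lymph nodes and 0.42 in KO tumours against WT lymph nodes. These medians are smaller because of the rise of Igkc itself, and they cover called segments only, which favours large folds. With unscaled reads it was 2.42 in B cells and 2.79 in KO tumours against WT lymph nodes. With 1 library left out it ranged from 2.40 to 2.75 in B cells, 2.64 to 3.74 in T cells, 1.97 to 2.20 in lymph nodes, 1.86 to 1.93 in KO tumours against KO lymph nodes and 2.52 to 2.76 in KO tumours against WT lymph nodes. The log2 ratio of summed reads then ranged from 3.05 to 3.73 in B cells, 2.43 to 3.45 in T cells, 1.77 to 1.96 in lymph nodes, 2.02 to 2.13 in KO tumours against KO lymph nodes and 2.95 to 3.03 in KO tumours against WT lymph nodes. Without the segment with the most reads it was 1.70, 1.88 and 2.75 in the lymph node and both tumour comparisons. For single named segments, 323 of 335 values under a pseudocount of 1 or without a library moved by less than the spread between libraries. Leaving out 1 of 2 libraries moves a value by an amount that depends on that same spread, so this count says little about stability. No paired analysis was possible because the deposited columns are means over 2 libraries and carry no replicate numbers. Segments that were not called have no values here, and 2 libraries per group limit every statement on spread.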
